A study of Homo sapiens with 30 samples.

Results

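The genes described here encode the subunits of the proteasome. They were taken as the gene symbols that start with PSMA, PSMB, PSMC, PSMD or PSME followed by a digit, without pseudogenes, antisense genes or genes for interacting proteins, and present in the 3 deposited count tables. This gave 43 genes, of 60612 genes in the knockout table and 56303 in each of the other tables. By their known place in the complex, 16 were core subunits, 17 were cap subunits and 5 were immunoproteasome genes (PSMB8, PSMB9, PSMB10, PSME1 and PSME2). The remaining 5 were the cap assembly chaperones PSMD5, PSMD9 and PSMD10 and the activators PSME3 and PSME4.

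RNA sequencing was performed on 30 libraries of 5637, a human bladder cancer cell line. The first table held cells in which RBPMS, an RNA-binding protein gene, had been knocked out by CRISPR with either of a pair of sgRNAs (KO1 and KO2), with a control group for each (WT1 and WT2). The second held cells with empty vector (Vector) or with a plasmid for either splice isoform of ANKRD10, an ankyrin repeat protein (ANKRD10-1 and ANKRD10-2), and the third held cells transfected with control siRNA (siNC) or with siRNA to either isoform (siANKRD10-1 and siANKRD10-2). Each of the 10 groups had 3 libraries. The labels did not say whether these came from separate cultures, so p-values measured the spread between these libraries only, which may be technical. The study's text places some of the ANKRD10 experiments in RBPMS-knockout cells while the labels name 5637 alone, so the genotype behind the overexpression and knockdown tables was not settled, and since it speaks of growing knockout populations out from single clones, clone and genotype cannot be told apart.

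The proteasome degrades proteins that carry ubiquitin chains. Its core is a barrel with PSMA rings at the ends and PSMB rings between them, and the active sites belong to PSMB5, PSMB6 and PSMB7. The cap binds ubiquitinated proteins, removes the ubiquitin and unfolds them with the ATPases encoded by PSMC1 to PSMC6. Interferon induces PSMB8, PSMB9 and PSMB10, which take the places of PSMB5, PSMB6 and PSMB7 in newly made cores, and the activator subunits PSME1 and PSME2. Such immunoproteasomes cut peptides for display on HLA class I, and PSMB8 and PSMB9 lie beside the peptide transporter genes TAP1 and TAP2 in the major histocompatibility complex. Core and cap genes are known to respond together to NFE2L1 when proteasome activity is low.

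Promoter sequences are shown first. Whether they bear on the responses to the knockouts was not tested. RefSeq promoter windows (GRCh38.p14, 300 bases each) were matched for 38 of the 43 genes. PSMA7, PSMB1, PSMB6, PSMB7 and PSMD4 had no entry. The stretch from 120 bases before to 30 bases after the annotated start is printed 5′ to 3′ on the gene's strand for the 5 immunoproteasome genes and for PSMB5, the core counterpart of PSMB8. The windows were chr6:32844018-32844167 (minus strand), chr6:32854072-32854221 (plus strand), chr16:67936821-67936970 (minus strand), chr14:24136074-24136223 (plus strand), chr14:24146581-24146730 (minus strand) and chr14:23034871-23035020 (minus strand). Capitals mark the interferon-stimulated response element core GAAANNGAA or the interferon-gamma activated site TTCNNNGAA, on either strand.
PSMB8: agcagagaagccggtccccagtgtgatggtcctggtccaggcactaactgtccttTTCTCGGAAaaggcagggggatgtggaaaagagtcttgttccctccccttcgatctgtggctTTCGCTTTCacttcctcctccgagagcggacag
PSMB9: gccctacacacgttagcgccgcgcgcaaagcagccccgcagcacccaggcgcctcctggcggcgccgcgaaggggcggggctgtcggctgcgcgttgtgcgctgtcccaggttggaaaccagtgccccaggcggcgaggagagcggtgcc
PSMB10: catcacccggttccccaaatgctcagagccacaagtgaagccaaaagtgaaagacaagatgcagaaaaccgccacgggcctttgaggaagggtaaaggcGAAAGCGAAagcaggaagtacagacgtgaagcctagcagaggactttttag
PSME1: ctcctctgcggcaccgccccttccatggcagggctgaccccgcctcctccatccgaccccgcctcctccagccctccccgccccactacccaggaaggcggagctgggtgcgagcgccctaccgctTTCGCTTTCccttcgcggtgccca
PSME2: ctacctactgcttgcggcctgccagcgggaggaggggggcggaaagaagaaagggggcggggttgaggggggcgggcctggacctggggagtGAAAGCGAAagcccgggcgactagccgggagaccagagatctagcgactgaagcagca
PSMB5: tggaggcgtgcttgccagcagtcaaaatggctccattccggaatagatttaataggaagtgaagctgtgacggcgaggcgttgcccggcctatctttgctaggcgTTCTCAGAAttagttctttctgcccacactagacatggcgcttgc

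The response element core was found in the full window of 4 of the 5 immunoproteasome genes (PSMB8, PSMB10, PSME1 and PSME2), and in each of them with the same letters, GAAAGCGAA or its reverse complement TTCGCTTTC. It was found in 2 of 12 core windows and 1 of 16 cap windows, against 8.11% of all 35116 promoter windows. The activated site was found in 7 of the 38 windows, of which PSMB8 was the immunoproteasome gene, against 7.66% of all. PSMB9 had no match to either in its window. These matches describe letters in a window and are not evidence of a bound factor.

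For comparison, the promoters of the core gene PSMA3 (chr14:58244723-58244872 (plus strand)) and the cap gene PSMD14 (chr2:161308305-161308454 (plus strand)) are printed with the CCAAT box in capitals on either strand. In PSMD14 the box was matched on both strands and the matches shared bases.
PSMA3: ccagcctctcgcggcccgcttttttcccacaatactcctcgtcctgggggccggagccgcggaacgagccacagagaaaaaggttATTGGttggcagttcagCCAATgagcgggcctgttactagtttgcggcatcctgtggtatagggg
PSMD14: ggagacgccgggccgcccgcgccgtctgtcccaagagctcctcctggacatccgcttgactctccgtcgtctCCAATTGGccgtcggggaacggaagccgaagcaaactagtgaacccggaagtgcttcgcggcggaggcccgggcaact

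A CCAAT box was present in 6 of 12 core, 8 of 16 cap and 1 of 5 immunoproteasome windows, against 34.6% of all windows. The antioxidant response element core TGACNNNGC was present in 11 of the 38 windows, against 13.3% of all. The E-box CACGTG, which MYC binds, was present in 3 of the 38 windows (PSMB3, PSMD9 and PSME3), against 7.26% of all.

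Library totals ranged from 28511029 to 69723937 counts. Values given as CPM (counts scaled to library totals) were corrected with TMM factors within a table, and RPKM were these values per kilobase of gene length. Gene lengths came with the overexpression and knockdown tables, and the same lengths were used for the knockout table. In bulk RNA, fewer cells of a type and less RNA per cell cannot be told apart. RBPMS was at 39.0, 42.2 and 40.1 CPM in WT1 and 15.1, 15.2 and 14.3 CPM in KO1. It was at 44.2, 42.8 and 42.4 CPM in WT2 and 20.7, 19 and 21.3 CPM in KO2, so RBPMS RNA was lowered but still present in both knockout groups. RNA does not measure the RBPMS protein, which the study assessed by Western blot after the knockout and which was not examined here. ANKRD10 gene counts, which do not separate the isoforms, changed by 0.67 (ANKRD10-1), 0.41 (ANKRD10-2), −0.24 (siANKRD10-1) and −0.25 (siANKRD10-2) on the log2 scale against their controls. Of 12 epithelial and urothelial markers, 10 or 11 were above 1 CPM in every group, as in an epithelial line, and 12 blood cell markers summed to 1.93 to 25.5 CPM per library.

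Of the 43 genes, 41 were expressed enough to be tested in every comparison. PSMA8, a testis subunit, and PSMB11, a thymus subunit, reached at most 0.063 and 0.0556 CPM in any library and were not tested. In WT1 the highest level per length was that of PSMA7, a core ring subunit, at 157 ± 3.7 RPKM (SD, n = 3), followed by PSMB3 at 119 ± 4.38 RPKM. The active-site subunit PSMB7 followed at 102 ± 3.86 RPKM, and these neighbours in the order were separated by more than their SDs. PSMB9 (4.6 ± 0.397 RPKM), PSMB10 (7.14 ± 0.788 RPKM) and PSMD6 (6.84 ± 0.191 RPKM) were near the bottom, and PSMB10 and PSMD6 did not differ beyond their spread.

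The levels of the core subunits, which the particle holds in equal numbers, were spread more widely in the overexpression and knockdown tables. In WT1 the highest core level (PSMA7) was 8.57 times the lowest (PSMA5) in RPKM, whereas in Vector it was 47.7 times the lowest (PSMB2) and in siNC 47.2 times (PSMB2). The tables were annotated and counted separately, and the part of this in the difference was not tested. Levels were therefore compared only within a table.

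RBPMS knockout with the first sgRNA raised most proteasome genes, and the immunoproteasome genes most. KO1 against WT1 showed 36 of 41 tested genes higher and 1 lower at an adjusted p of 0.05 (edgeR quasi-likelihood test), where 17.9% of all 17865 genes tested were higher and 18.2% were lower. The core genes were higher in 13 of 14 cases with a median log2 fold change of 0.33, and the cap genes in 14 of 17 with a median of 0.29. All 5 immunoproteasome genes were higher, with a median of 0.82, while the median of all genes tested was −0.00. PSMA2, PSMC4, PSMC6 and PSMD5 did not pass the test.

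PSMB9, the interferon-induced replacement of PSMB6, was at 15.5, 13.1 and 13.7 CPM in WT1 and at 38.0, 36.5 and 41.3 CPM in KO1. Every KO1 library lay far above every WT1 library. The change was 1.45 ± 0.085 on the log2 scale (SE, adjusted p = 5.1e-07), or 2.73-fold. PSMB8, which replaces PSMB5, was at 43, 45 and 45.2 CPM in WT1 and at 76.1, 78.6 and 88.4 CPM in KO1, a log2 change of 0.87 ± 0.065 (adjusted p = 3.26e-06). The groups did not overlap for PSMB8 either. PSMB10, which replaces PSMB7, was at 14.2, 13.9 and 11.6 CPM in WT1 and 23.6, 23.1 and 23.3 CPM in KO1 (0.82 ± 0.094, adjusted p = 6.31e-05). The activator subunits rose less than PSMB9: PSME2 went from 69.5, 74.1 and 78.3 to 115, 118 and 125 CPM (0.69 ± 0.058). PSME1 went from 123, 126 and 127 to 167, 170 and 178 CPM (0.45 ± 0.047).

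The constitutive active-site subunits rose by smaller steps in KO1, by 0.35 for PSMB5, 0.40 for PSMB6 and 0.27 for PSMB7 on the log2 scale. Per length, PSMB9 stood at 0.118 ± 0.0071 of PSMB6 in WT1 and at 0.244 ± 0.0118 in KO1 (ratio of RPKM, SD, n = 3). The largest core change was that of PSMA3, an outer ring subunit, which was at 99.4, 103 and 117 CPM in WT1 and 151, 169 and 162 CPM in KO1 (0.59 ± 0.069, adjusted p = 6.9e-05). PSMB2 and PSMA6 followed, with 0.45 each. Among the cap genes the ATPase PSMC1 changed by 0.44 and the scaffold subunit PSMD12 by 0.41. The alternative activators PSME3 and PSME4 rose by 0.32 and 0.23.

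PSMD8, a cap subunit on chromosome 19, was the exception. It was at 113, 114 and 114 CPM in WT1 and at 91.8, 90.4 and 93.8 CPM in KO1, so that every KO1 library was lower (−0.30 ± 0.045, adjusted p = 0.000391). PSMC4, a cap ATPase on the same chromosome, was at 69.0, 69.8 and 72.3 CPM in WT1 and 63.9, 61.3 and 67.6 CPM in KO1 (−0.13 ± 0.055, adjusted p = 0.0853). The genes of chromosome 19 as a whole had a median of −0.38 in this comparison, and the 208 tested genes within 5 Mb of PSMD8 a median of −0.50. Whether the chromosome's shift accounts for these values was not tested.

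**Figure D1:**
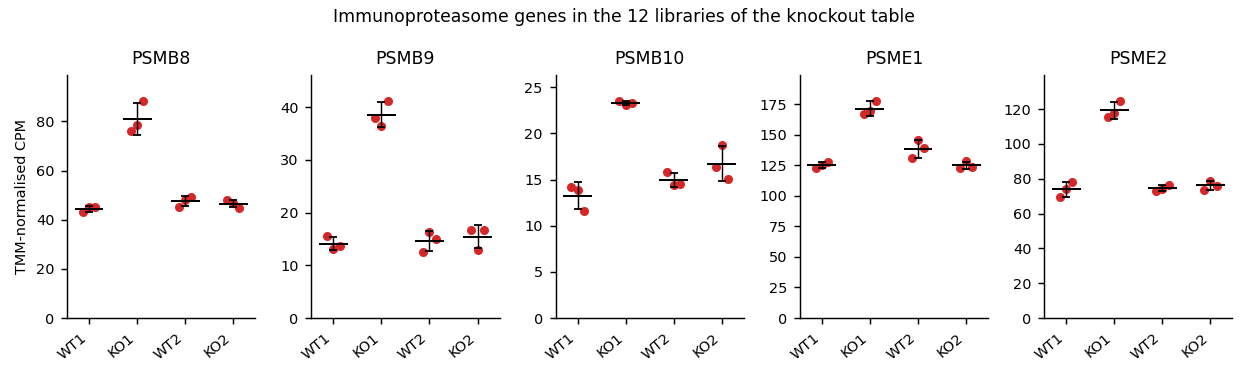
TMM-scaled CPM in each library (points) and group means (lines) of the 5 immunoproteasome genes in the knockout table, with the SD as error bars, the 4 groups on the horizontal axis and 3 libraries a group. For each gene the KO1 points lie above all others, whereas the KO2 points of PSMB8, PSMB9, PSMB10 and PSME2 overlap those of WT2.

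Knockout with the second sgRNA also raised the core and cap genes, while no immunoproteasome gene was called higher. KO2 against WT2 showed 32 of 41 genes higher and 1 lower, where 19.3% of 18267 genes tested were higher and 19.2% were lower. All 17 cap genes were higher, with a median log2 fold change of 0.37, as were 12 of 14 core genes, with a median of 0.29. Of the immunoproteasome genes none was higher and 1 was lower, with a median of 0.02. The median of all genes tested was −0.02.

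PSMD11, a cap scaffold subunit, had the largest change in KO2. It was at 213, 209 and 203 CPM in WT2 and 295, 303 and 299 CPM in KO2, well apart (0.52 ± 0.033, adjusted p = 2.01e-07). PSMD2, a ubiquitin-receptor scaffold of the cap base, was at 206, 205 and 209 CPM in WT2 and 278, 288 and 288 CPM in KO2 (0.46 ± 0.032). PSMA3 was at 89.6, 93.5 and 98.2 CPM in WT2 and 127, 131 and 129 CPM in KO2 (0.46 ± 0.043). PSMD8 and PSMC4, not raised in KO1, rose here by 0.37 and 0.43. PSMB5 and PSMB6 rose by 0.37 and 0.31.

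PSMB8 was at 45.2, 48 and 49.1 CPM in WT2 and 48, 46.9 and 44.8 CPM in KO2, with overlapping groups (−0.03 ± 0.052, adjusted p = 0.69). PSMB9 was at 12.5, 16.3 and 15 CPM in WT2 and 16.7, 12.9 and 16.8 CPM in KO2 (0.08 ± 0.123, adjusted p = 0.657). PSMB10 (0.16 ± 0.096) and PSME2 (0.02 ± 0.045) did not pass the test either. PSME1 was at 131, 146 and 139 CPM in WT2 and 123, 129 and 123 CPM in KO2, a small fall (−0.15 ± 0.045, adjusted p = 0.0178). That call was lost on leaving out replicate 2 or 3 of WT2 or replicate 1 or 3 of KO2, and with all 6 WT libraries as controls (−0.08, adjusted p = 0.236). PSMB7, the active-site subunit on chromosome 9, was at 169, 174 and 182 CPM in WT2 and 162, 168 and 162 CPM in KO2 (−0.10 ± 0.039, adjusted p = 0.0667), beside a median of −0.41 over the genes of chromosome 9. The part of the chromosome in this value was not tested. PSMB7 was called lower with upper-quartile scaling (adjusted p = 0.0308), with library size as the sole scaling (adjusted p = 0.0133), with all 6 WT libraries as controls (adjusted p = 0.0171) and without replicate 1 of WT2 (adjusted p = 0.0428).

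**Figure D2:**
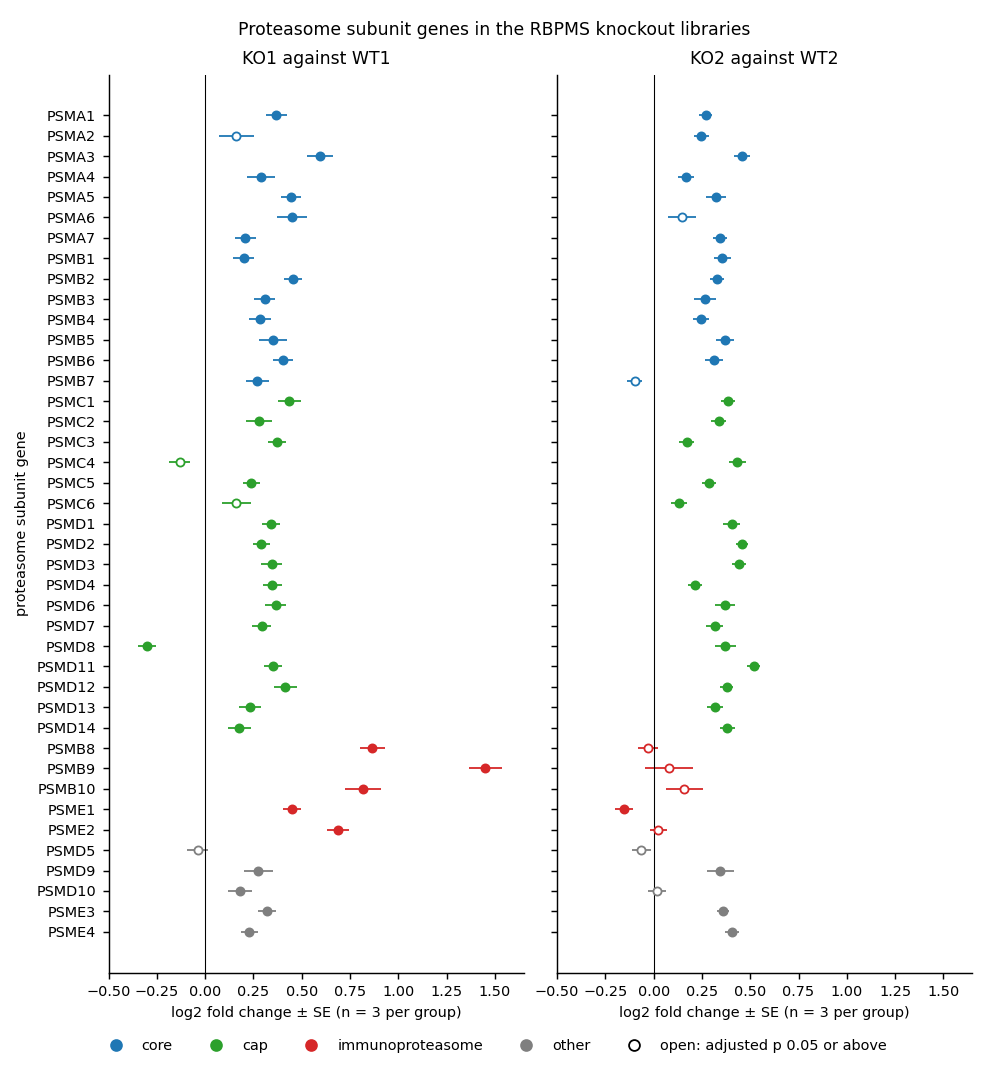
Log2 fold change ± SE of each tested proteasome gene (rows) in KO1 against WT1 (left) and KO2 against WT2 (right), 3 libraries a group, coloured by class, with open points where the adjusted p was 0.05 or above. Most core and cap points lie right of 0 on both sides, while the immunoproteasome points reach 1.45 on the left and lie near 0 on the right.

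The knockout effects differed between the sgRNAs for the immunoproteasome genes as tested by an interaction contrast over the 12 libraries. The KO1 effect was larger for 7 genes and smaller for 5 of 41, where 11.2% of 19189 genes tested were larger and 12.1% were smaller. The count of smaller effects was thus near the share of all genes. All 5 immunoproteasome genes were among the 7, with differences of 1.37 ± 0.16 for PSMB9 (adjusted p = 1.08e-05), 0.89 ± 0.084 for PSMB8, 0.66 ± 0.135 for PSMB10, 0.66 ± 0.072 for PSME2 and 0.60 ± 0.063 for PSME1. The others were PSMB7 (0.36) and the cap ATPase PSMC3 (0.20), whose call was lost without replicate 2 of WT1 or WT2 or replicate 2 or 3 of KO2. The 5 smaller effects were those of PSMD8 (−0.68 ± 0.073), PSMC4 (−0.57 ± 0.067), PSME4 (−0.18), PSMD2 (−0.17) and PSMD11 (−0.17). The call of PSME4 was lost without replicate 2 of WT1 or of KO2 and with no filter on low counts, and 2 or 3 effects were smaller without replicate 2 or 3 of KO2. The median difference was 0.09 for the core and −0.06 for the cap. For PSMB5 and PSMB6 the differences were −0.02 ± 0.086 and 0.09 ± 0.066 and did not pass.

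PSMB7, PSMD8 and PSMC4 moved here beside their chromosomes, since the median difference was 0.43 over chromosome 9 and −0.39 over chromosome 19. Over chromosome 6, which carries PSMB8 and PSMB9, it was 0.03. The antisense gene PSMB8-AS1, which overlaps these genes, changed by 0.98 ± 0.183 in KO1 (adjusted p = 0.00161) and by −0.46 ± 0.302 in KO2 (adjusted p = 0.267). The strand setting of the counting is not given in the sources used here, so its reads and theirs could not be told apart. The exons of PSMB8 and PSMB9 also overlap each other on opposite strands, those of PSME2 overlap RNF31 and those of PSME1 overlap EMC9. RNF31 was at −1.04 ± 0.369 in KO1 and 1.41 ± 0.35 in KO2, and EMC9 at 0.20 ± 0.090 and 0.34 ± 0.085. PSMB10, PSMC1, PSMC5, PSMD1, PSMD6, PSMD7, PSMD9, PSMD11, PSMD13, PSMD14, PSME3, PSME4, PSMA1, PSMA2 and PSMA6 each overlap another annotated gene as well, and their counts carry the same limit.

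Across both knockouts, which share no library, 28 of the 43 genes were higher in both, made up of 11 core, 14 cap and 3 other genes, and 0 were lower in both. PSMD8 and PSME1 were called in opposite directions. Of 17445 genes tested in both comparisons, 9.44% were higher in both, 8.28% were lower in both and 4.16% were called in opposite directions.

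Between the control groups themselves, no proteasome gene was called. WT2 against WT1 gave 0 higher and 0 lower calls with edgeR, where 0.578% of 18335 genes tested were higher and 0.654% were lower. At an unadjusted p under 0.05 there were 10 of 41 (13.3% of all genes tested), and DESeq2 called 0 higher and 1 lower. The fitted changes were below 0 for all 14 core genes (median −0.09) and above 0 for all 5 immunoproteasome genes (median 0.10), from 0.01 for PSME2 to 0.18 for PSMB10. PSMB8 and PSMB9 stood at 0.10 and 0.05, PSMB5 at −0.13, PSMB6 at −0.02, PSMB7 at −0.06 and PSME1 at 0.15.

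Summed over the class, core genes had 1983 to 2188 CPM per library in WT1 and 2493 to 2760 in KO1, and 1900 to 2049 in WT2 and 2344 to 2374 in KO2. Cap genes had 2236 to 2305 CPM in WT1, 2712 to 2802 in KO1, 2156 to 2201 in WT2 and 2787 to 2824 in KO2. Neither class overlapped between a knockout group and its controls. The immunoproteasome genes made up 5.05 to 5.12% of the summed CPM of the 43 genes in WT1 and 6.39 to 6.72% in KO1. They made up 5.53 to 5.78% in WT2 and 4.40 to 4.5% in KO2. The 5 genes themselves summed to 265 to 276 CPM in WT1 and 420 to 456 in KO1, without overlap, and to 278 to 299 CPM in WT2 and 276 to 286 in KO2, with overlap. In KO2 the share was thus lower beside a sum whose groups overlapped and higher sums of core and cap genes.

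Genes of the class I pathway downstream of the immunoproteasome moved with it in KO1. Of 15 listed antigen processing genes, 14 were higher in KO1 (median 0.72), against 6 higher and 2 lower in KO2 (median 0.14), and 11 differed between the sgRNAs, all with the larger effect in KO1. Of all genes tested, 17.9% were higher in KO1, 19.3% were higher and 19.2% lower in KO2, and 11.2% had the larger effect in KO1. HLA-B, a class I heavy chain, changed by 1.51 ± 0.06 in KO1 and −0.03 ± 0.059 in KO2, and TAP1, a subunit of the peptide transporter, by 0.72 ± 0.056 and 0.15 ± 0.052. TAP2, the other transporter subunit, rose in both (0.96 and 0.66). B2M, the class I light chain, rose in KO1 (0.53) and fell in KO2 (−0.22). NLRC5, an activator of class I genes, changed by 0.74 ± 0.144 in KO1 and 0.14 ± 0.121 in KO2.

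Interferon signalling genes had no common direction, with 4 of 15 higher and 5 lower in KO1 and 5 higher and 4 lower in KO2. Of all genes tested, 17.9% were higher and 18.2% lower in KO1, against 19.3% and 19.2% in KO2. IRF1, a transcription factor of that pathway, rose in both (0.33 and 0.24). Blood cell markers, listed because leukocytes carry much immunoproteasome, summed to 1.96 to 2.61 CPM in WT1 and 4.10 to 5.32 CPM in KO1. Of the 12, 5 could be tested in KO1, and the 2 that rose were CD74 and HLA-DRA, both of which serve class II antigen presentation. PTPRC, CD3E, MS4A1 and ITGAM, which define leukocytes, were at 0 in all libraries of the knockout table. CD74 changed the other way in KO2 (−1.97 ± 0.629), where CD68 rose (4.16 ± 0.515). These were changes at very low levels, since all 12 markers together summed to 1.93 to 3.09 CPM in WT2 and 2.79 to 3.35 CPM in KO2. Fibroblast markers summed to 53.3 to 57.2 CPM in WT1 and 32.6 to 38.1 CPM in KO1, with 3 of 4 tested lower and 1 higher, and endothelial markers to 1.36 to 2.63 and 2.26 to 3.4 CPM, with 2 of 3 tested higher. The part of these markers in the proteasome values was not tested.

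Proteasome assembly and regulation genes were higher in 8 of 22 cases in KO1 and 10 of 22 in KO2, with 0 and 2 lower. POMP, the core assembly chaperone, rose by 0.37 and 0.33, and ADRM1, a ubiquitin receptor of the cap, by 0.43 and 0.62. NFE2L1, the transcription factor of subunit genes, rose by 0.26 and 0.31. PSMG1, a chaperone of the PSMA ring, was at −0.07 ± 0.081 in KO1 and rose by 0.63 ± 0.057 in KO2. Ubiquitin delivery genes were higher in 9 of 18 cases in KO1 and 7 in KO2, and lower in 2 and 3. Among all genes tested, 17.9% were higher and 18.2% lower in KO1, against 19.3% and 19.2% in KO2. The lower calls of the delivery genes were not above these shares. The shuttle factor gene RAD23B rose by 0.35 in KO1 and fell in KO2 (−0.30).

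The study examined MYC targets, and 14 core and cap genes stand on a hand-written list of MYC target genes. In KO1, 10 of these 14 were higher and 1 lower (median 0.29), against 17 of 17 tested core and cap genes off the list (median 0.35). The listed PSMD8 and PSMC4, not higher in KO1, lie on chromosome 19, whose genes had a median of −0.38. In KO2, 13 of 14 were higher (median 0.32), against 16 of 17 off the list (median 0.34). With ANKRD10-2, 7 of 14 were higher, against 6 of 17 off the list. With siANKRD10-2, 7 of 14 were lower and 2 higher, against 10 of 17 lower and 2 higher off the list. The study arrived at MYC targets through gene set enrichment in these libraries, so the list is not independent evidence of direction. The study also reported reporter, qRT-PCR, chromatin immunoprecipitation and patient cohort data on MYC targets, which were not examined here.

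**Figure D3:**
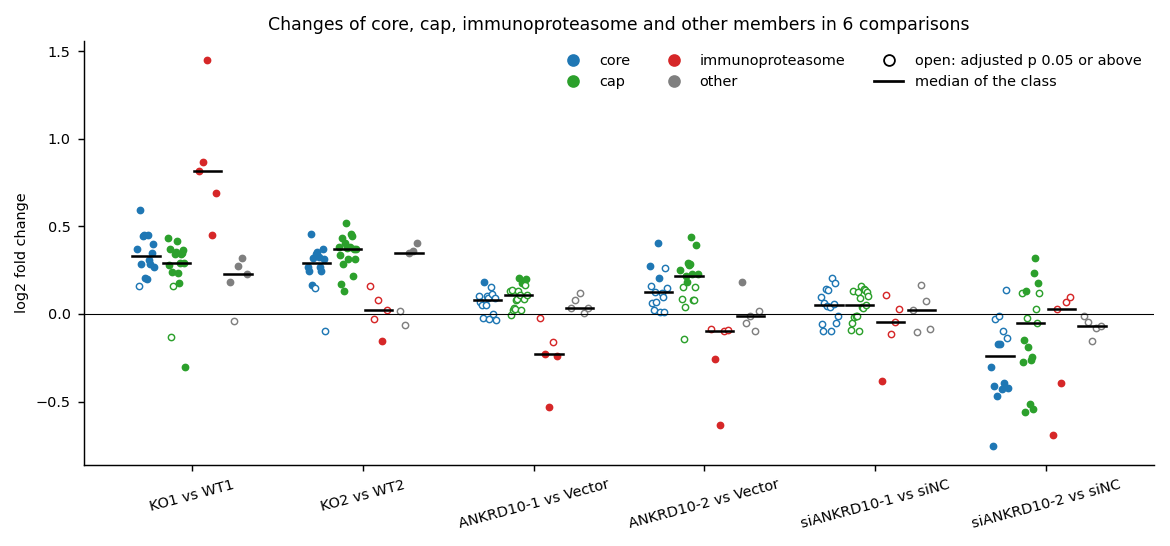
Log2 fold change of each tested proteasome gene (points) by class in 6 comparisons against a control group, with a line at the class median and open points where the adjusted p was 0.05 or above. The core and cap medians lie above 0 in both knockouts, the immunoproteasome median is 0.82 in KO1 and 0.02 in KO2, and the core median is −0.24 with siANKRD10-2.

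Overexpression of ANKRD10-1 changed few proteasome genes. Against Vector, 4 were higher (PSMA5, PSMD3, PSMD7 and PSMD13) and 3 lower (PSMB8, PSMB9 and PSME2), where 3.5% of 20457 genes tested were higher and 2.81% were lower. The median log2 fold change was 0.08 for the core, 0.11 for the cap and −0.23 for the immunoproteasome genes. PSMB9 was at 7.68, 8.40 and 8.17 CPM in Vector and 4.85, 5.60 and 6.34 CPM with ANKRD10-1, without overlap (−0.53 ± 0.109, adjusted p = 0.00624). There were 0 higher genes without replicate 1 of Vector, 1 without replicate 2 of Vector or replicate 1 of ANKRD10-1, and 2 without replicate 2 or 3 of ANKRD10-1. Lower genes fell to 1 without replicate 1 of Vector or replicate 2 of ANKRD10-1, and PSMB9 stayed called with any 1 library left out.

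The other immunoproteasome changes with ANKRD10-1 were small: PSMB8 was at 43.1, 41.0 and 41.3 CPM in Vector and 37.9, 35.8 and 33.3 CPM with ANKRD10-1 (−0.23 ± 0.059, adjusted p = 0.0291), and this call was lost without replicate 1 or 2 of Vector or replicate 2 or 3 of ANKRD10-1. PSME2 fell by 0.24 on the log2 scale (adjusted p = 0.0225), lost without 5 of the 6 libraries in turn (all but replicate 2 of Vector). PSME1 was at −0.16 (adjusted p = 0.0534, and 0.032 without replicate 3 of ANKRD10-1) and PSMB10 at −0.02 (adjusted p = 0.961). PSMB5, PSMB6 and PSMB7 were at −0.00, 0.09 and −0.04 and did not pass. PSMD13 (0.20) and PSMA5 (0.18), whose subunits belong to the cap lid and the outer ring, lost their calls without most single libraries, and PSMD7 (0.20) without replicate 1 of Vector or of ANKRD10-1.

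Overexpression of ANKRD10-2 raised cap genes and some core genes. Against Vector, 14 were higher and 2 lower, where 10.7% of 20177 genes tested were higher and 9.25% were lower. The higher genes were 10 of 17 cap genes (median 0.22), 3 of 14 core genes (median 0.12) and PSMD10, a cap assembly chaperone. The difference between the classes was not tested. Without replicate 2 of Vector 9 were higher. With library size as the sole scaling 9 were higher and 5 lower, and the median of all genes was then −0.08 against −0.01 with TMM.

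PSMD14, the cap's deubiquitinase, was at 53.2, 55.7 and 50.7 CPM in Vector, 59.5, 54.3 and 58.4 CPM with ANKRD10-1 and 77.3, 68.2 and 70.4 CPM with ANKRD10-2. The ANKRD10-2 libraries stood above both other groups (0.44 ± 0.06 against Vector, adjusted p = 0.000189). PSMA7 was at 167, 166 and 182 CPM in Vector and 244, 218 and 219 CPM with ANKRD10-2 (0.40 ± 0.057), and PSMD7, a cap lid subunit, at 128, 134 and 129 and at 186, 162 and 165 CPM (0.39 ± 0.056). The immunoproteasome genes moved the other way where they moved. PSMB9 was at 5.74, 4.44 and 5.36 CPM with ANKRD10-2 (−0.63 ± 0.114, adjusted p = 0.00159) and PSMB8 at 37.3, 33.1 and 34.3 CPM (−0.26 ± 0.063, adjusted p = 0.0109), the latter lost without replicate 1 of Vector or replicate 2 of ANKRD10-2.

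PSMB10 (−0.09), PSME1 (−0.10) and PSME2 (−0.09) did not pass, nor did PSMB5 (0.01), PSMB6 (0.26, adjusted p = 0.0835) and PSMB7 (0.15). The immunoproteasome genes made up 18.4 to 19.7% of the summed CPM in Vector, 16.0 to 17.1% with ANKRD10-1 and 16.2 to 16.6% with ANKRD10-2, both below every Vector library. Their summed CPM was 702 to 741 in Vector, 617 to 663 with ANKRD10-1 and 650 to 716 with ANKRD10-2, the last overlapping Vector. PSME1 made up most of each sum, at 527, 572 and 556 CPM in Vector and 549, 499 and 499 CPM with ANKRD10-2. Between the isoforms, 5 genes were higher with ANKRD10-2 (PSMA7, PSMD2, PSMD7, PSMD11 and PSMD14) and 0 were lower with edgeR, where 4.15% of 20052 genes tested were higher and 3.1% were lower. At an unadjusted p under 0.05 there were 12 of 41 (21.2% of all genes tested), and DESeq2 called 6 higher and 0 lower. PSMD14 differed by 0.33 ± 0.06 (adjusted p = 0.00178) and PSMA7 by 0.30 ± 0.055, whereas PSMB9 differed by −0.10 ± 0.132 and PSMB8 by −0.03 ± 0.067 and did not pass. The call of PSMD2 (0.20) was lost without any 1 library of ANKRD10-1, and the count of higher genes was then 2. PSMB7 (0.18) was called without replicate 2 of ANKRD10-2 (adjusted p = 0.0312).

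Antigen processing genes were lower in 6 of 15 cases with ANKRD10-1 and in 7 of 15 with ANKRD10-2, and higher in 2 in each. Of all genes tested, 2.81% were lower and 3.5% higher with ANKRD10-1, against 9.25% and 10.7% with ANKRD10-2. Interferon signalling genes were lower in 6 of 15 cases in each, with IRF9, a transcription factor of the pathway, at −1.69 ± 0.055 with ANKRD10-2. Ubiquitin delivery genes were higher in 10 of 18 cases with ANKRD10-2 and lower in 0, and the shuttle factor gene RAD23B rose by 0.49 ± 0.094. Assembly and regulation genes were higher in 7 of 21 tested cases with ANKRD10-2, led by PITHD1 and ADRM1 (0.67 and 0.50). Epithelial markers moved in the same libraries, with 7 of 11 higher (median 0.24), and summed to 3799 to 3918 CPM in Vector and 4327 to 4844 CPM with ANKRD10-2. Blood cell markers summed to 24.0 to 25.5 CPM in Vector, 18.2 to 19.6 with ANKRD10-1 and 18.8 to 20.2 with ANKRD10-2, and of 5 tested CD68, a lysosomal protein gene, was the 1 that fell (−0.34 ± 0.070 with ANKRD10-2). Their part in the proteasome values was not tested.

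**Figure D4:**
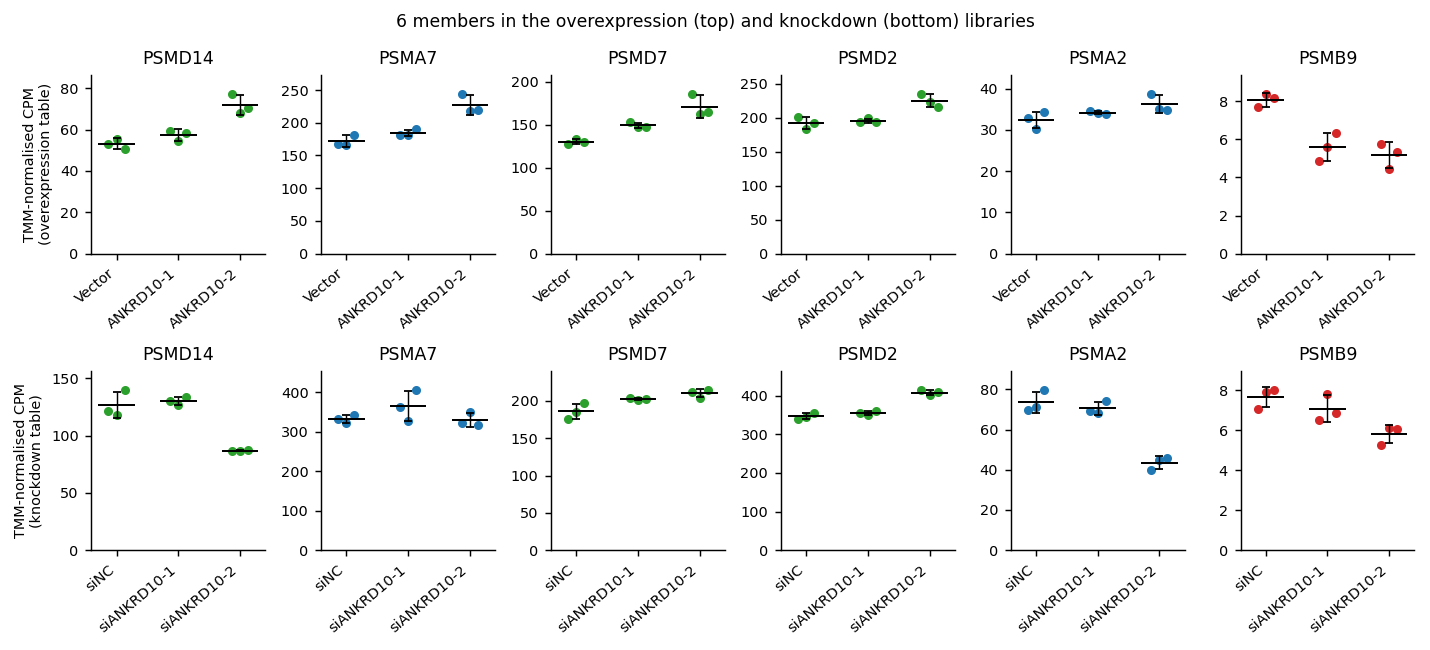
TMM-scaled CPM of PSMD14, PSMA7, PSMD7, PSMD2, PSMA2 and PSMB9 in each library (points) with group means and SD (lines and bars), in the overexpression table (top) and the knockdown table (bottom), 3 libraries a group. PSMD14 is highest with ANKRD10-2 in the top row (68.2 to 77.3 CPM) and lowest with siANKRD10-2 in the bottom row (86.1 to 87.4 CPM), while PSMD2 is highest with siANKRD10-2 (401 to 414 CPM).

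With siANKRD10-1, 1 of 41 proteasome genes passed the threshold. Against siNC, 0 were higher and 1 was lower with edgeR, where 5.08% of 18785 genes tested were higher and 5.52% were lower. At an unadjusted p under 0.05 there were 11 (25.1% of all genes tested), and DESeq2 called 0 higher and 1 lower. The gene was PSMB10, at 11.7, 10.5 and 11.6 CPM in siNC and 9.03, 8.27 and 8.61 CPM with siANKRD10-1 (−0.38 ± 0.097, adjusted p = 0.0155). Its groups did not overlap, but the call was lost without replicate 1 of siNC (adjusted p = 0.0698). PSMB8 (0.11), PSMB9 (−0.12), PSME1 (−0.04) and PSME2 (0.03) did not pass, nor did PSMB5 (0.18), PSMB6 (−0.05) and PSMB7 (−0.01). Without replicate 3 of siNC 5 genes were higher, PSMB5 among them (0.21, adjusted p = 0.0476), and without replicate 2 of siANKRD10-1 2 were.

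siANKRD10-2 lowered many core genes and some cap genes. Against siNC, 19 of 41 genes were lower and 4 higher, where 17.6% of 18924 genes tested were higher and 18.7% were lower. Calls higher were thus no more frequent among the proteasome genes than among all genes tested. Of the core genes 9 of 14 were lower and none was higher (median −0.24). Of the cap genes 8 of 17 were lower and 4 were higher (median −0.05). Of the immunoproteasome genes 2 were lower (median 0.03), and the median of all genes tested was 0.00.

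PSMA2, an outer ring subunit, was at 69.8, 71.1 and 79.5 CPM in siNC, 69.3, 68.2 and 74.3 CPM with siANKRD10-1 and 39.9, 44.9 and 46.0 CPM with siANKRD10-2. The siANKRD10-2 libraries lay far below both other groups (−0.75 ± 0.065 against siNC, adjusted p = 1.06e-09, a change of −40.6%). MRPL32, whose exons overlap PSMA2 on the other strand, changed by −0.39, and reads of the pair could not be told apart without the strand setting. PSMC4 was at 65.4, 68.1 and 70.4 CPM in siNC and 45.2, 48.5 and 44.9 CPM with siANKRD10-2 (−0.56 ± 0.058). PSMD14 was at 122, 118 and 139 CPM in siNC and 86.9, 86.1 and 87.4 CPM with siANKRD10-2 (−0.54 ± 0.06, adjusted p = 6.88e-08). PSMA2, PSMC4 and PSMD14 thus each had groups without overlap.

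PSMD3, a cap lid scaffold, went the other way, from 196, 190 and 183 CPM in siNC to 245, 245 and 220 CPM (0.32 ± 0.055). PSMD2 was at 340, 344 and 356 CPM in siNC and 414, 401 and 409 CPM (0.24 ± 0.051), and PSMC5, a cap ATPase, changed by 0.13. PSMD7 changed by 0.18 (adjusted p = 0.0112), a call lost without replicate 1 or 2 of siNC. Without replicate 1 or 2 of siNC 2 genes were higher, and without replicate 3 of siNC 8 were, PSMB5 (adjusted p = 0.0348) and PSME2 (adjusted p = 0.0248) among them. With upper-quartile scaling 8 were higher and with library size as the sole scaling 7.

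Of the active-site subunits, PSMB7 was at 124, 125 and 138 CPM in siNC and 92.7, 101 and 94.8 CPM with siANKRD10-2 (−0.42 ± 0.057), while PSMB5 (0.13) and PSMB6 (−0.14) did not pass. PSMB10, the replacement of PSMB7, was at 7.57, 7.12 and 6.26 CPM with siANKRD10-2 (−0.69 ± 0.107, adjusted p = 1.09e-05). PSMB9 was at 7.06, 7.92 and 8.0 CPM in siNC and 5.27, 6.12 and 6.05 CPM (−0.40 ± 0.118, adjusted p = 0.00984), a call lost without replicate 1 of siANKRD10-2 (adjusted p = 0.0557). PSMB8 (0.03), PSME1 (0.07) and PSME2 (0.10) did not pass, and the immunoproteasome share of the summed CPM was 10.4 to 11.1% in siNC, 10.1 to 10.4% with siANKRD10-1 and 11.3 to 11.8% with siANKRD10-2. Their summed CPM overlapped between the 3 groups, at 617 to 713 in siNC, 639 to 665 with siANKRD10-1 and 666 to 699 with siANKRD10-2. PSME1 made up most of each sum, at 444, 480 and 523 CPM in siNC and 520, 512 and 484 CPM with siANKRD10-2.

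**Figure D5:**
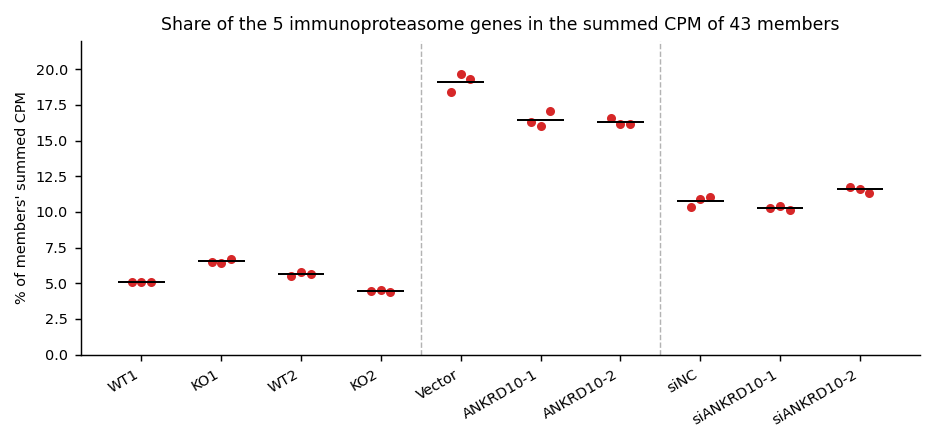
Share of the 5 immunoproteasome genes in the summed CPM of the 43 proteasome genes (%), per library (points) with group means (lines); dashed lines part the 3 tables, which were made separately. The share is highest in KO1 among the knockout groups (6.39 to 6.72%), and in Vector among the overexpression groups (18.4 to 19.7%). PSME1 has the highest CPM of the 5 genes in every library.

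The siRNAs also differed from each other. siANKRD10-2 against siANKRD10-1 gave 4 genes higher (PSMC1, PSMC5, PSMD2 and PSMD3) and 21 lower, where 18.2% of 18832 genes tested were higher and 18.8% were lower. The largest falls were those of PSMA2 (−0.69 ± 0.064), PSMA5 (−0.60 ± 0.061) and PSMD14 (−0.58 ± 0.053). PSMB7 (−0.41) was lower, as was PSMB10 at −0.30 (adjusted p = 0.0368), the latter lost without replicate 1 or 3 of siANKRD10-1 or replicate 2 or 3 of siANKRD10-2. It was also lost with upper-quartile factors, with library size as the sole scaling, without the filter on low counts and with DESeq2, and was kept in 5 of 13 alternatives. PSMB5 (−0.04), PSMB6 (−0.08), PSMB8 (−0.07), PSMB9 (−0.28), PSME1 (0.12) and PSME2 (0.07) did not pass. PSMC1 (0.22), PSMD2 (0.21) and PSMC5 (0.15) led the higher genes, and the call of PSMC5 was lost without replicate 1 of siANKRD10-1 or replicate 1 or 2 of siANKRD10-2. PSME1 was called higher without replicate 3 of siANKRD10-2 (adjusted p = 0.0442). The count of higher genes was 2 without each of the libraries that PSMC5 depended on.

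Other genes of the pathway were called in both directions with siANKRD10-2, where 18.7% of all genes tested were lower and 17.6% higher. Ubiquitin delivery genes were lower in 10 of 18 cases and higher in 3, with RPS27A, a ubiquitin-ribosomal fusion gene, at −0.82 ± 0.056 and RAD23B at −0.69 ± 0.052. Assembly and regulation genes were lower in 7 of 21 tested cases, with the deubiquitinase USP14 at −0.56 ± 0.056, and higher in 3, among them NFE2L1 (0.41 ± 0.051). Interferon signalling genes were lower in 6 of 15 cases and higher in 0, with IRF1 at −0.72 ± 0.058. Epithelial markers fell in 8 of 11 tested cases (median −0.66), and summed to 6622 to 7058 CPM in siNC and 4036 to 4169 CPM with siANKRD10-2. Blood cell markers summed to 13.1 to 15.2 and 10.3 to 11.9 CPM, with CD68 lower (−0.46 ± 0.096). Their part in the proteasome values was not tested.

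Set side by side over tables that share no library, 13 of 41 genes were higher in both knockouts and lower with siANKRD10-2, as were 4.34% of the 14020 genes tested in all 3 comparisons. These were PSMA1, PSMA3, PSMA5, PSMB1, PSMB2, PSMB4, PSMC2, PSMC3, PSMD1, PSMD11, PSMD12, PSMD13 and PSMD14. Of them 7 were also higher with ANKRD10-2 overexpression: PSMA1, PSMB1, PSMD1, PSMD11, PSMD12, PSMD13 and PSMD14. Of the 13894 genes tested in all 4 comparisons, 1.58% had these calls. PSMD11, for example, was at 0.35 in KO1, 0.52 in KO2, 0.29 with ANKRD10-2 and −0.51 with siANKRD10-2 on the log2 scale, all past the threshold. PSMD14 was at 0.18, 0.38, 0.44 and −0.54 in the same order, and PSMA1, an outer ring subunit, at 0.37, 0.27, 0.28 and −0.30. PSMC5, PSMD2, PSMD3 and PSMD7 were higher in both knockouts and higher with siANKRD10-2, as were 1.67% of the genes tested. These 4 were all of the 41 genes called higher with siANKRD10-2, where 17.6% of all genes tested were higher. Calls higher with siANKRD10-2 were thus no more frequent among the proteasome genes than among all genes. PSMD2 and PSMD7 were also higher with ANKRD10-2, as were 0.453%. PSMB8 and PSMB9 were higher in KO1 and lower with either isoform overexpressed, and PSMB9 was lower with siANKRD10-2 too.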

How the data were processed

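RNA was sequenced in 30 libraries of the 5637 line, in 10 groups of 3. The authors deposited raw read counts per gene in 3 tables. The submitters' processing notes name Trimmomatic 0.36, featureCounts of Subread 1.5.1 and the GRCh38 build, and the study's methods add Cutadapt, HISAT2, StringTie and DESeq2. The annotation release and the strand setting are not given in the sources used here. The labels and the methods name different stranded mRNA kits. No per-sample column was left out.

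Counts were tested with edgeR 4.0.16 (R 4.3.3, limma 3.58.1) by the quasi-likelihood test, over all genes that passed filterByExpr (minimum count 10, minimum total 15), with TMM factors, Benjamini-Hochberg adjusted p-values and a threshold of 0.05. Each pair of groups was fitted alone, and the difference between the knockouts over their 12 libraries. The prior count of fitted changes was 0.125. DESeq2 1.42.0, other scalings, no filter, a stricter call, leaving out each library and a replicate block were alternatives. Totals ranged from 28511029 to 69723937 counts, which sets the counting error of low genes, and replicates differed by more than sampling noise. The fits were tested on data simulated for 1 comparison of each table. Of the simulated log2 changes of 0.5 in size, 52 to 61.9% were recovered, and of those of 1, 69.5 to 82.7%. Of the genes simulated without a change, 8 to 13 were called.

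The proteasome genes and all gene lists were chosen with earlier results of these data known. Genes named in every comparison were the 5 immunoproteasome genes and PSMB5, PSMB6 and PSMB7, with up to 3 other subunits higher and 3 lower by size, and those named beyond this were chosen after their values were seen. Neighbouring genes were those within 5 Mb. Promoters came from RefSeq (GRCh38.p14). Some genes of the lists are not reported here.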

Additional observations from a re-analysis of the deposited data

Results flagged for a closer look

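The responses to the knockouts differed for 12 of 41 tested proteasome genes, by the interaction contrast of edgeR's quasi-likelihood test over 12 libraries. The KO1 effect was larger for 7 and smaller for 5, where 11.2% of 19189 genes tested were larger and 12.1% were smaller. The smaller effects were thus about as frequent among the 41 proteasome genes as among all genes tested. The difference, KO1 effect minus KO2 effect on the log2 scale, was 1.37 for PSMB9, 0.89 for PSMB8, 0.66 for PSMB10, 0.66 for PSME2 and 0.60 for PSME1, the 5 immunoproteasome genes. It was 0.36 for the active-site gene PSMB7 and 0.20 for the cap ATPase gene PSMC3. It was −0.68 for PSMD8, −0.57 for PSMC4, −0.18 for PSME4, −0.17 for PSMD2 and −0.17 for PSMD11. The genes of chromosome 9, where PSMB7 lies, had a median difference of 0.43, and those of chromosome 19, where PSMD8 and PSMC4 lie, of −0.39. Their part in these differences was not tested.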

How the results depend on the processing

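The limits first. Each group had 3 libraries, and gene-level counts do not separate isoforms or strands. RBPMS RNA, which does not measure the protein, was lowered but present in the knockouts. With a log2 change of at least 0.5 also required, the counts higher and lower were 5 and 0 in KO1, 1 and 0 in KO2, 0 and 1 with ANKRD10-1, 0 and 1 with ANKRD10-2, 0 and 5 with siANKRD10-2, and 0 and 4 between the siRNAs. Under that rule 2 effects were smaller in KO1 than in KO2, 0 genes were higher between the isoforms and 0 were lower with siANKRD10-1.

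With library size as the sole scaling, 2 genes were lower in KO1 and 2 in KO2, 1 was higher with ANKRD10-1, 9 were higher and 5 lower with ANKRD10-2, 3 were higher between the isoforms and 7 were higher with siANKRD10-2. With upper-quartile factors 2 were lower in KO2, 1 was higher with siANKRD10-1 and 8 with siANKRD10-2. In a single fit of all libraries of a table there were 2 lower in KO1, 2 higher with ANKRD10-1 and 1 higher with siANKRD10-1. Without the filter 2 interaction effects were smaller, and DESeq2 called 1 lower in WT2 against WT1.

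The labels do not say that a replicate number marks a shared culture or day, and in no comparison did the deviations of every same-numbered pair correlate above 0.1 (−0.0577 to 0.131). The nearest was ANKRD10-2 against Vector, with 2 of 3 pairs above it. The replicate block gave 2 higher with siANKRD10-1 and 2 higher between the siRNAs, and moved no other count by over 1.5 times. With the block PSMB6 (adjusted p = 0.0317) and PSMB7 (adjusted p = 0.0376) were called higher with ANKRD10-2 and PSMB5 with siANKRD10-1 (adjusted p = 0.0367), and PSMC5 was lost between the siRNAs (adjusted p = 0.0678).

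Over all settings that kept every library, 10 calls of named genes were lost and 16 were gained. Beside those named above and with their genes, PSMA5 (library size and the single fit) and PSMD13 (library size) were lost with ANKRD10-1, and PSME1 was called lower with ANKRD10-1 (library size, no filter and DESeq2) and ANKRD10-2 (library size). PSMB7 was called higher between the isoforms (DESeq2), PSMB5 with siANKRD10-2 (upper quartile and library size), PSME2 with siANKRD10-2 (upper quartile) and PSME1 between the siRNAs (upper quartile and library size).

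Leaving out 1 library gave 31 to 37 higher and 1 to 1 lower in KO1, 31 to 33 and 0 to 2 in KO2, 6 to 8 larger and 2 to 6 smaller effects, 0 to 5 and 1 to 2 with ANKRD10-1, 9 to 13 and 1 to 2 with ANKRD10-2, 2 to 5 higher between the isoforms, 0 to 5 and 0 to 1 with siANKRD10-1, 2 to 8 and 14 to 19 with siANKRD10-2, and 2 to 5 and 19 to 22 between the siRNAs.

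In 39 cases a log2 change turned sign, between −0.0651 and 0.1004, none past the threshold. Of these 8 came from other settings. PSMB8 in KO2 was at 0.016 with all 6 WT libraries, PSME2 in KO2 at −0.018 with library size. PSMB5 was at 0.00302 (upper quartile) and 0.00319 (no filter) with ANKRD10-1, at −0.0651 (library size) with ANKRD10-2, and at −7.83e-05 (upper quartile) and −0.0205 (library size) between the isoforms. PSMB7 was at 0.00463 (upper quartile) with siANKRD10-1. The other 31 came from leaving out 1 library, with these ranges. PSMB5 ranged from −0.067 to 0.049 with ANKRD10-1, from −0.011 to 0.052 with ANKRD10-2, from −0.035 to 0.081 between the isoforms and from −0.095 to 0.046 between the knockouts. PSMB6 ranged from −0.0039 to 0.179 with ANKRD10-1 and from −0.049 to 0.0056 between the controls, and PSMB7 from −0.039 to 0.038 with siANKRD10-1. PSMB8 ranged from −0.083 to 0.017 between the isoforms, and PSMB9 from −0.022 to 0.193 in KO2 and from −0.041 to 0.147 between the controls. PSMB10 ranged from −0.133 to 0.035 with ANKRD10-1, from −0.215 to 0.085 with ANKRD10-2 and from −0.197 to 0.1004 between the isoforms. PSME1 ranged from −0.102 to 0.015 with siANKRD10-1, and PSME2 from −0.0038 to 0.049 in KO2, from −0.029 to 0.057 between the controls and from −0.0052 to 0.083 with siANKRD10-1. The cause of these changes was not tested.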
